A study of Homo sapiens with 3 samples.

Results

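The genes described here are MYC and 33 factors that build ribosomes in the nucleolus, chosen by symbol as a functional set. The selection rule names no measured value, although earlier results of these data were known when the set was drawn up. All 34 were found among the 20332 genes of the deposited table, and all 34 passed the expression minimum of 1 CPM (counts per 1000000 counts, averaged over the libraries) that 11322 genes met. The cells were MV-4-11, a human acute leukaemia line known for a fusion of KMT2A and an activating duplication within FLT3, and its genotype is labelled wild type. The study has 3 libraries of polyadenylated RNA, 1 per group. The control was left untreated for 1 day, and the other cultures received FL-Fc-DM1 over 1 day, at either 0.5 nM or 1.5 nM. This agent couples an Fc fusion of FLT3 ligand with DM1, a poison of microtubules. The deposited table numbers its columns 0, 1 and 2 without a dose, and the higher number was taken as the higher dose. Were these columns in the opposite order, 0.5 nM and 1.5 nM would trade places throughout.

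MYC is a transcription factor that binds DNA with its partner MAX, and in blood cancers it drives growth in large part through the genes that make ribosomes. In the nucleolus RNA polymerase I transcribes a long precursor rRNA. Small nucleolar ribonucleoproteins (snoRNPs) then guide its chemical modification, and the small subunit processome and the pre-60S factors cut and fold it into the small and large ribosomal subunits. Polyadenylated RNA reports the messages of these factors and not the rRNA itself, so rRNA synthesis was not measured.

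The libraries had total estimated counts of 22329953 (control), 16427206 (0.5 nM) and 16864857 (1.5 nM). With no replicate in any group, no test between conditions could be run, and every ratio below compares these libraries alone. Brackets hold exact 95% intervals. They account for counting error alone and treat reads as independent, which amplified copies are not. The myeloid identity was present in each library, with all 12 listed markers above 1 CPM, while all 10 B and T lymphocyte markers stood below 1 CPM, CD79A among them, although the labels call the leukaemia of origin B-myelomonocytic. CD3D, CD3E, CD3G and MS4A1 had 0 counts throughout. Of 10 erythroid and megakaryocytic markers 2 were kept, KLF1 and ITGA2B, with a sum of 2.86 to 4.06 CPM over the list, and HBB, HBA1, HBA2, ALAS2, PF4 and PPBP were at 0. The 13 epithelial and stromal markers summed to 95.1, 131 and 157 CPM, nearly all of it PECAM1, which myeloid cells also express, and EPCAM, COL1A2, COL3A1 and DCN were at 0. DSP had 32, 27 and 0 counts and DSG2 21, 18 and 0 (control, 0.5 nM, 1.5 nM), and the part of this marker list in the values below was not tested.

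As a set, the messages of these genes took a slightly smaller share of each treated library. Together they held 0.965% [0.961, 0.969] of the control library, 0.894% [0.890, 0.899] of the 0.5 nM library and 0.871% [0.866, 0.875] of the 1.5 nM library. NCL and NPM1, the most abundant members, made up 0.404%, 0.359% and 0.344% in that order. The remaining 32 genes held 0.560%, 0.536% and 0.527%, so the lower share was present without NCL and NPM1 as well. The RNA came from whole cultures, in which fewer cells expressing a gene and less of its RNA per cell cannot be told apart, and CPM carries no information on total RNA per cell.

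Most members stood below the control in both treated libraries, each by a small amount. At 0.5 nM, 30 of 34 had a log2 ratio below 0, against 49.4% of all genes, and the median was -0.12 against 0.00168 for all genes. At 1.5 nM, 29 of 34 lay below 0, against 50.2% of all genes, and the median was -0.11 against -0.000879. Among the 6143 genes at least as abundant as the least abundant member, 52.4% and 54.7% lay below 0 and the medians were -0.0084 and -0.02. The quartiles of the members ran from -0.19 to -0.05 at 0.5 nM and from -0.22 to -0.06 at 1.5 nM, against -0.10 to 0.08 and -0.13 to 0.10 for those abundant genes. The direction holds for fewer members on other scales. Scaled by total counts alone, 26 lay below 0 and 8 above at 0.5 nM, and by TPM (transcripts per 1000000, a level per gene length) 23 lay below and 11 above. The median of all genes was itself 0.06 on the TPM scale, and 27 members lay below that median.

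No member differed from the control by 2-fold in either treated library, where 0.23% of all genes were 2-fold lower and 0.53% higher at 0.5 nM and 0.574% and 1.47% at 1.5 nM. Of the 6143 abundant genes, 0 were 2-fold lower and 1 higher at 0.5 nM, and 1 was lower and 1 higher at 1.5 nM. The absence of 2-fold members is thus no result about the set. Few members passed a fold of 1.2, which is 0.26 on the log2 scale. At 0.5 nM NOP16, NHP2 and BOP1 were at least 1.2-fold lower, 3 of 34 (8.82%) beside 6.96% of all genes and 2.7% of the abundant ones. At 1.5 nM GAR1, FBL, NCL, RRP9 and POLR1B were, 5 of 34 (14.7%) beside 12.6% and 9.08%. None was 1.2-fold higher at either dose, where 10.2% of all genes and 3.04% of the abundant ones were at 0.5 nM, and 15.3% and 6.5% at 1.5 nM. The shares of members past 1.2-fold on the lower side were close to those of all genes, so beside these they are no result about the set. They were above those of the abundant genes, and that difference was not tested. The counting interval lay wholly below 0 for 21 members at 0.5 nM and 22 at 1.5 nM, beside 17.3% and 23.6% of all genes and 24.9% and 32.1% of the abundant ones. It lay wholly above 0 for 1 and 3 members, beside 16.7% and 22.7% of all genes and 20.8% and 24.6% of the abundant ones. The comparisons with the control share that library, so an error in it would move both in the same direction.

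**Figure D1:**
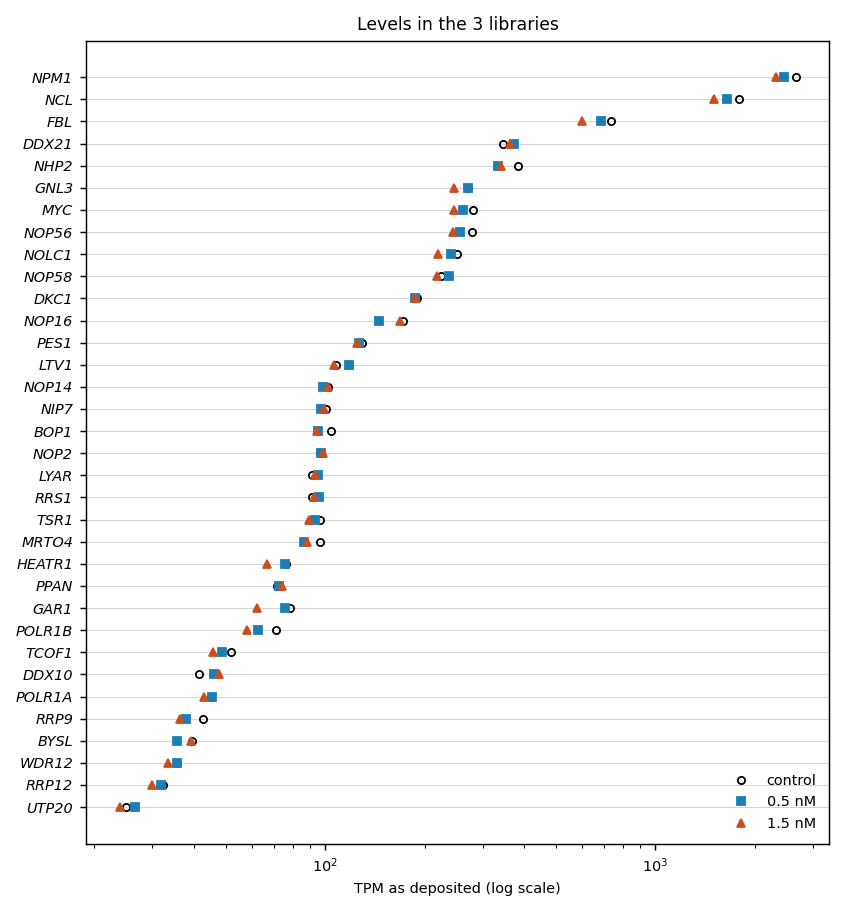
Level of each of the 34 genes in TPM as deposited, on a log axis, in the control (open circles), 0.5 nM (squares) and 1.5 nM (triangles) library; genes are ordered by their mean. Mean levels run from 25.1 TPM for UTP20 to 2473 TPM for NPM1, and the 3 symbols of a gene lie close together beside that range.

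MYC itself (ENSG00000136997) stood at 311 CPM in the control, 269.2 CPM at 0.5 nM and 265.2 CPM at 1.5 nM. Both treated libraries were thus below the control and close to each other. Against the control, the log2 ratio of MYC came to -0.21 [-0.26, -0.15] at 0.5 nM and -0.23 [-0.28, -0.18] at 1.5 nM, and between the treated libraries it was -0.02 [-0.08, 0.04]. Of all genes, 10.9% had a lower ratio than MYC at 0.5 nM and 15.2% at 1.5 nM. On the TPM scale, MYC was at 280.5, 261.2 and 246.3, and its log2 ratios were -0.10 and -0.19, so the size of the 0.5 nM difference depends on the unit.

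RNA polymerase I genes were lower in both treated libraries, and between these the interval of POLR1B alone excluded 0, at -0.16 [-0.25, -0.08]. POLR1B, which encodes the second largest subunit, had 142.7, 132.2 and 118 CPM in the control, 0.5 nM and 1.5 nM library. Its log2 ratio was -0.11 [-0.19, -0.03] at 0.5 nM and -0.27 [-0.35, -0.19] at 1.5 nM. TCOF1 encodes treacle, a nucleolar cofactor of the polymerase that is altered in Treacher Collins syndrome, and had 123.1, 110.0 and 105.4 CPM, with ratios of -0.16 and -0.22. POLR1A, the largest subunit, had -0.10 at either dose. All 3 genes lay below 0 in both comparisons, although POLR1A was at 0.01 on the TPM scale at 0.5 nM.

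The abundant nucleolar phosphoproteins stood lower, while an RNA helicase of the same group did not. NCL (nucleolin, ENSG00000115053), which binds precursor rRNA, was at 2270, 1971 and 1853 CPM in the control, 0.5 nM and 1.5 nM library. Its ratio was -0.20 [-0.22, -0.18] at 0.5 nM and -0.29 [-0.31, -0.27] at 1.5 nM, the narrowest intervals of the set. NPM1 (nucleophosmin), a chaperone of ribosome assembly and a gene often mutated in acute myeloid leukaemia, had 1830, 1602 and 1562 CPM and ratios of -0.19 and -0.23. Its counts were not whole in every library, which is taken here as a sign of reads shared with other loci, so its values are uncertain beyond the interval. NOLC1, a chaperone of snoRNPs, had -0.15 and -0.23, and GNL3 (nucleostemin), a nucleolar GTPase, had -0.07 and -0.20. DDX21, the helicase, was at 822.8, 847.9 and 846.4 CPM, slightly above the control at either dose, as it was on the TPM scale, with a ratio of 0.04 [0.01, 0.08] at 0.5 nM. LYAR, a nucleolar zinc finger protein, stayed within its counting error, at 72.8, 72.5 and 72.9 CPM.

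Among the box C/D and U3 snoRNP proteins, which serve 2′-O-methylation and early cleavage of precursor rRNA, all 4 genes lay below 0 at both doses, except that NOP58 was above 0 at 0.5 nM on the TPM scale, at 0.08, and when scaled by total counts. FBL encodes fibrillarin, the methyltransferase of the box C/D particle, and had 327.8, 290.4 and 261.6 CPM. The control was the highest and the 1.5 nM library the lowest, with a ratio of -0.17 [-0.23, -0.12] at 0.5 nM and -0.33 [-0.38, -0.27] at 1.5 nM. RRP9, a protein specific to the U3 particle, had 34, 28.7 and 28 CPM and ratios of -0.24 [-0.41, -0.08] and -0.28 [-0.45, -0.11]. NOP56 and NOP58 are paired core proteins of the same particle. NOP56 stood at -0.18 and -0.21 and NOP58 at -0.02 [-0.08, 0.05] and -0.08 [-0.15, -0.02].

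The box H/ACA proteins, which carry out pseudouridylation of rRNA and also bind telomerase RNA, were lower as well, with a different member lowest at each dose. NHP2 had 127.9, 105.5 and 112.6 CPM, a ratio of -0.28 [-0.37, -0.19] at 0.5 nM and -0.18 [-0.27, -0.10] at 1.5 nM, and its counts were not whole. GAR1 had 40.7, 37.5 and 31.5 CPM, with -0.12 [-0.27, 0.03] at 0.5 nM and -0.37 [-0.53, -0.21] at 1.5 nM. That is the lowest ratio of any member at 1.5 nM, and 6.72% of all genes had a lower one. DKC1 (dyskerin), the pseudouridine synthase of the particle, was closer to the control at -0.09 and -0.07.

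Small subunit processome and pre-40S factors were the nearest to the control at 0.5 nM. Their median was -0.03 at 0.5 nM and -0.08 at 1.5 nM, with 5 and 7 of 8 genes below 0, against 4 and 7 when scaled by total counts and 5 and 6 on the TPM scale. LTV1, an export and assembly factor of the small subunit, had 102.8, 107.3 and 98.5 CPM, with ratios of 0.06 [-0.03, 0.15] and -0.06 [-0.15, 0.03] that both include 0. HEATR1, a processome protein that also supports polymerase I transcription, had 293.4, 289.9 and 259.7 CPM and was lower at 1.5 nM alone, with -0.18 [-0.23, -0.12]. Its counts were not whole. BYSL (bystin), a pre-40S factor, had 34.7, 29.8 and 33.6 CPM and was lower at 0.5 nM alone, with -0.22 [-0.39, -0.05]. DDX10, a helicase, was the highest member at both doses, with 0.07 [-0.04, 0.18] and 0.16 [0.05, 0.27]. The others ranged from -0.16 for NOP14 to 0.01 for UTP20 at 0.5 nM and from -0.16 for TSR1 to -0.05 for NOP14 at 1.5 nM.

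Pre-60S factors stood below the control, by CPM further at 0.5 nM than at 1.5 nM. Their medians at 0.5 nM and 1.5 nM were -0.025 and -0.023 on the TPM scale. With the trend of the ratios over GC content removed they were -0.10 and -0.085. All 9 lay below 0 at 0.5 nM with a median of -0.12, and 7 did at 1.5 nM with a median of -0.06, but 8 and 6 did when scaled by total counts and 5 and 6 on the TPM scale. NOP16 had 79.4, 63.9 and 76.1 CPM, so the 0.5 nM library alone was low. Its ratio of -0.31 [-0.42, -0.20] at 0.5 nM was the lowest of the set, against -0.06 [-0.17, 0.04] at 1.5 nM, and its counts were not whole. MRTO4, which holds a place on the large subunit for stalk assembly, had 101.7, 86.7 and 90.3 CPM and ratios of -0.23 [-0.33, -0.13] and -0.17 [-0.27, -0.08]. BOP1, PES1 and WDR12 form 1 complex, PeBoW, that is needed to mature the large subunit rRNA. Their log2 ratios were -0.27, -0.13 and -0.05 at 0.5 nM and -0.17, -0.09 and -0.12 at 1.5 nM. NOP2, an rRNA methyltransferase with counts that were not whole, had -0.06 and 0.10. RRS1, which helps to bring in the 5S particle, was at 80.8, 80.7 and 79.9 CPM. PPAN and NIP7 lay between -0.11 and 0.06.

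**Figure D2:**
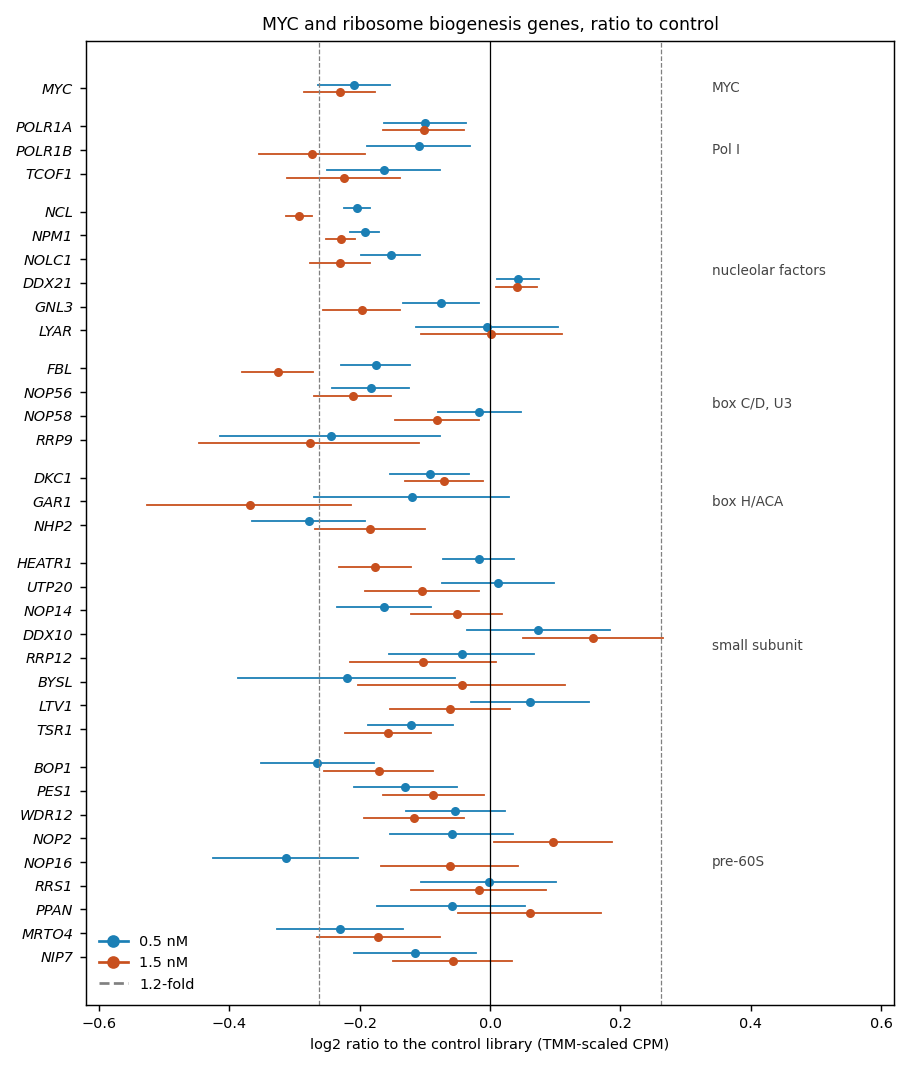
Log2 ratio of each gene to the control library at 0.5 nM (blue) and 1.5 nM (orange), grouped by role; lines are exact 95% counting intervals and dashed lines mark 1.2-fold. Of 34 genes, 30 points lie below 0 at 0.5 nM and 29 at 1.5 nM, and several lie close to the 1.2-fold line on either side, such as RRP9 at -0.24 and -0.28.

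Between the treated libraries the set as a whole hardly differed. The log2 ratio of 1.5 nM to 0.5 nM had a median of -0.02, with 21 of 34 below 0, beside 49.9% of all genes and 53% of the abundant ones. No member passed 1.2-fold in either direction, beside 10.1% of all genes and 5.39% of the abundant ones on the lower side and 11.6% and 4.09% on the higher side. Members went separate ways within that narrow range, also within a role group. GAR1 had -0.25 [-0.42, -0.08], POLR1B -0.16, HEATR1 -0.16 and FBL -0.15. On the other side NOP16 had 0.25 [0.13, 0.37], BYSL 0.18 [-1.98e-05, 0.35], NOP2 0.16, NOP14 0.11 and NHP2 0.09. All 4 box C/D genes were lower at 1.5 nM than at 0.5 nM, although of these FBL alone had an interval that excluded 0. Of the 9 pre-60S factors 7 were higher, but 5 of 9 were on the TPM scale. With the GC trend removed 3 of the 4 box C/D genes were lower and 5 of the 9 pre-60S factors higher, and the median of the latter was 0.006 in place of 0.06. On the TPM scale 25 members lay below 0 and 9 above, with a median of all genes at -0.03.

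Base composition moved with these differences. At 0.5 nM the ratios of all genes were lower at higher transcript GC content, with medians of 0.09 in the 10% of genes with the lowest GC and -0.10 in the 10% with the highest, while at 1.5 nM the corresponding medians were -0.03 and 0.05. The members followed the 0.5 nM trend from a lower level. Across the 34 genes, Spearman's rho with GC content was -0.56 at 0.5 nM and -0.01 at 1.5 nM, a description over genes that share the same libraries. The 17 members of lower GC content, from 40.2% to 50.9%, had a median of -0.07 at 0.5 nM, and the 17 of higher GC content, up to 65.2%, had -0.16. At 1.5 nM these medians were -0.12 and -0.10. DDX21, DDX10 and LTV1, the members highest at 0.5 nM, had 41.1%, 40.2% and 41.7% GC. With the GC trend removed the set's median was -0.11 at 0.5 nM and -0.14 at 1.5 nM, with 28 and 29 genes below 0. NOP16 was then the single gene at least 1.2-fold lower at 0.5 nM, and the median between the treated libraries was -0.05.

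**Figure D3:**
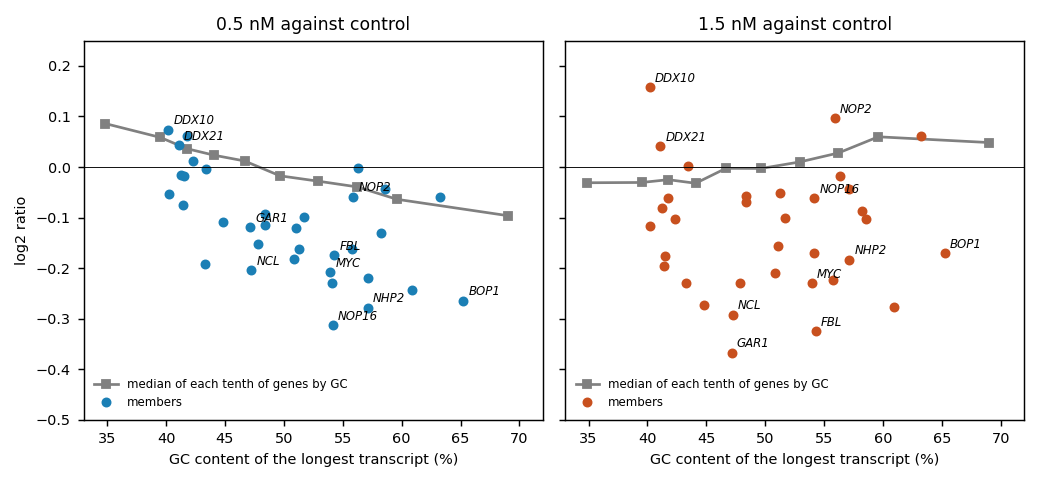
Log2 ratio to control against the GC content of the longest transcript at 0.5 nM (left) and 1.5 nM (right); circles are the 34 genes and grey squares the medians of 10 equal bins of all genes by GC, placed at the middle of each bin. Most circles lie below the grey line at either dose, and at 0.5 nM both slope downward.

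Promoter sequences are shown for FBL and GAR1, the members with a canonical E-box that were lowest at 1.5 nM, and for NCL, the lowest member without one, because the E-box CACGTG is the DNA element that MYC and MAX bind. Each is a RefSeq promoter of build GRCh38.p14, 250 bases before the start of the transcript to 50 after. It is written 5′ to 3′ on the gene's strand with CACGTG in capitals. GAR1 has 2 such windows, and the sequence shown was taken from those that hold CACGTG. The FBL window is chr19:39846330-39846629 on the minus strand, that of GAR1 is chr4:109815512-109815811 on the plus strand and that of NCL is chr2:231464435-231464734 on the minus strand.
FBL: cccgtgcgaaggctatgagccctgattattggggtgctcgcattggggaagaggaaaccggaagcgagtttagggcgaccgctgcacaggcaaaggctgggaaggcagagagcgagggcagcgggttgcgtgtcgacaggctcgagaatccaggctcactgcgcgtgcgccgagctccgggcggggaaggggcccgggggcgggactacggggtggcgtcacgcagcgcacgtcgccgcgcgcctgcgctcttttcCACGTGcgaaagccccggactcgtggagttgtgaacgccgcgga
GAR1: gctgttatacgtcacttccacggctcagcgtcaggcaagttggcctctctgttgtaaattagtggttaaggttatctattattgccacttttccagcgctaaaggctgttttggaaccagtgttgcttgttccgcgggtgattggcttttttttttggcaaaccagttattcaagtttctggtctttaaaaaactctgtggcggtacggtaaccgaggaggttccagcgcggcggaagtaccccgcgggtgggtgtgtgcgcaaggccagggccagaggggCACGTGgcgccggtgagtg
NCL: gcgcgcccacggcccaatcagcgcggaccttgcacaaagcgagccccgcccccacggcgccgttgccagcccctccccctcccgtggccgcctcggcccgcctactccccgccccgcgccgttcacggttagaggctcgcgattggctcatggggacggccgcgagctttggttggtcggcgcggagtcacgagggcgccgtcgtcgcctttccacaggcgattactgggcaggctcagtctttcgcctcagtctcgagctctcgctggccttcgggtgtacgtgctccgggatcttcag

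The E-box begins at base 257 of the FBL window and at base 282 of the GAR1 window, both just past the annotated start, and these letters are not in the NCL window. RefSeq promoters were matched for 27 of the 34 genes. CACGTG, which reads the same on both strands, was found for 13 of the 27 (48.1%), against 12.9% of the 9208 genes kept that had a promoter and 8.77% of all genes in the promoter table. For the other elements, both strands were searched. CACGCG was held by 33.3% of members and 22.9% of genes kept, CCGGAAG by 37.0% and 24.4%, GGGCGG by 70.4% and 77.1%, and CCAAT by 44.4% and 43.7%. Genes were counted once, with a match in any of their windows. These are counts of letters in a window and not of bound sites.

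In the 13 promoters the E-box began between base 187 and base 286, in 9 of them after the start site and in 4 before it. Of these, 6 are shown with 10 bases on either side (9 on the right of NOP2, where the window ends) to compare the flanks, with the E-box in capitals.
RRP9: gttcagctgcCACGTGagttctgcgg
BYSL: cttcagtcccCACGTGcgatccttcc
DDX21: ccgggtgtccCACGTGgtccccggcg
MRTO4: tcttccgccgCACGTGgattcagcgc
PES1: cttggcagggCACGTGcgggaggaag
NOP2: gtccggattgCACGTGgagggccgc

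DDX21 alone of the 13 had a C before and a G after the element. A C before or a G after, which is the same flank read from either strand, was present in 10 of the 13. The medians of members with and without CACGTG lay close together. The 13 with it had a median of -0.12 at 0.5 nM and -0.09 at 1.5 nM, with 10 below 0 at either dose. The 14 without it had -0.11 and -0.14, with 13 and 12 below 0. The genes with an E-box included the lowest member at 1.5 nM, GAR1, and DDX21, which lay above the control.

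By CPM the other genes of ribosome biogenesis were lower too, by less. On the TPM scale at 0.5 nM, most of the other pre-60S and small subunit factors stood above the control. The median of all genes was then 0.06. Over 140 further factors the median by CPM was -0.06 at 0.5 nM and -0.07 at 1.5 nM, with 97 (69.3%) and 96 (68.6%) below 0. At least 1.2-fold lower were 9 and 12, and none was 1.2-fold higher. Of all genes 10.2% and 15.3% were 1.2-fold higher, and of the abundant ones 3.04% and 6.5%. The shares at least 1.2-fold lower, 6.43% and 8.57%, were below the 6.96% and 12.6% of all genes. Of the abundant genes 2.7% and 9.08% were 1.2-fold lower, so against these the share at 0.5 nM was the higher. Their shares below 0 lay between those of the members and of all genes, and the difference was not tested. For the 63 measured genes that the table's own KEGG annotation places in ribosome biogenesis and that are no members, the medians were -0.05 and -0.04.

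Of these, the 14 other polymerase I subunits and initiation factors had medians of -0.06 and -0.13, with 10 and 9 below 0. TAF1D, a subunit of the selectivity factor, was at 141.3, 118.1 and 104.8 CPM, with a ratio of -0.43 [-0.51, -0.35] at 1.5 nM. POLR1G also had -0.43 at 1.5 nM, with counts that were not whole. POLR1E had -0.20, and TAF1A had -0.21 [-0.61, 0.17], which includes 0. UBTF, which keeps rDNA open for transcription, had -0.08 and -0.16. RRN3, which recruits the polymerase to the promoter, was slightly higher, at 0.10 in either library.

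The 12 other snoRNP proteins and assembly factors had medians of -0.16 and -0.13, with 11 below 0 at either dose. SNU13, the protein that binds box C/D RNA first, was at 116.1, 95.5 and 97 CPM, with ratios of -0.28 and -0.26. NAF1, which helps to assemble the H/ACA particle, had 0.04 [-0.17, 0.25] at 0.5 nM and -0.34 [-0.57, -0.11] at 1.5 nM. SHQ1 had -0.18 and ZNHIT3 -0.15 [-0.32, 0.02] at 1.5 nM, the latter with counts that were not whole. NAF1 thus stood near the control at 0.5 nM and lower at 1.5 nM.

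By CPM the 48 other small subunit factors had medians of -0.05 at both doses, with 34 and 32 below 0. WDR36, a processome protein, was at 148.3, 147.6 and 113 CPM, near the control at 0.5 nM and at -0.39 [-0.48, -0.31] at 1.5 nM. UTP25 had -0.29, WDR3 -0.27 and TRMT112 -0.25 at 1.5 nM, and WDR3 and TRMT112 are uncertain because their counts were not whole. The 49 other pre-60S factors had medians by CPM of -0.03 and -0.05, with 28 and 29 below 0. Their largest differences at 1.5 nM were -0.25 for DDX27, -0.24 for NOL9, -0.22 for LAS1L and -0.19 for DDX55. LAS1L and NOL9 belong to the complex that cuts the spacer between the large subunit rRNAs.

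The RNA exosome and other nucleases that trim rRNA had the largest share past 1.2-fold of these lists. Of 17 genes, 14 and 15 lay below 0, with medians of -0.10 at either dose, and 3 (17.6%) and 6 (35.3%) were at least 1.2-fold lower, beside 6.96% and 12.6% of all genes and 2.7% and 9.08% of the abundant ones. EXOSC2, an RNA-binding cap subunit, was at 85.1, 73.6 and 65 CPM, with -0.21 [-0.31, -0.10] and -0.39 [-0.50, -0.28]. At 1.5 nM EXOSC9 had -0.43, EXOSC4 -0.42 and EXOSC6 -0.38, and the counts of EXOSC9 and EXOSC4 were not whole.

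**Figure D4:**
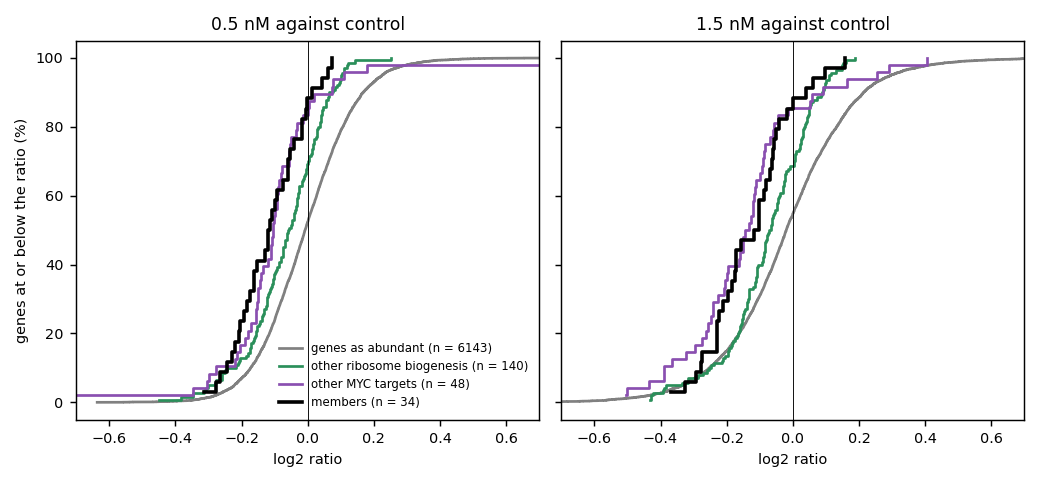
Cumulative share of genes at or below each log2 ratio to control, at 0.5 nM (left) and 1.5 nM (right), for the 34 genes (black), 140 other ribosome biogenesis genes (green), 48 other MYC targets (purple) and 6143 genes at least as abundant as the least abundant member (grey). The black curve lies to the left of the grey one over most of its course, and the green curve runs between them around a ratio of 0.

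As 1 list, MYC's partners, antagonists and turnover factors were evenly split. Over 20 measured genes the medians were 0.02 and -0.000341, with 10 below 0 at either dose. With the GC trend removed 6 lay below 0 at 0.5 nM and 10 at 1.5 nM. MAX was at 81.5, 73.8 and 65.4 CPM, with ratios of -0.14 [-0.25, -0.04] and -0.32 [-0.43, -0.21]. MXD1, an antagonist that competes for MAX, was at 32.3, 36.5 and 41.8 CPM, with 0.17 [0.02, 0.33] and 0.37 [0.22, 0.52]. The counts of MAX and MXD1 were not whole. The related antagonist MXI1 had 0.23 and 0.20, and MNT had 0.36 [0.15, 0.58] at 0.5 nM and 0.01 [-0.22, 0.24] at 1.5 nM. MXD3, MXD4 and MGA had 0.51, 0.22 and 0.21 at 0.5 nM, each with an interval wholly above 0. At 1.5 nM they had -0.19, 0.24 and 0.16. The counts of MXD3, from 92 in the control, were not whole. SKP2, a ubiquitin ligase subunit that acts on MYC and on the cell cycle inhibitor p27, was at 154.3, 129.2 and 103.1 CPM and -0.58 at 1.5 nM, with counts that were not whole. ZBTB17 (MIZ1), with which MYC represses genes, had 0.27 [0.04, 0.50] at 1.5 nM. MYCN had 0 counts in each library, and at a floor of 3 counts that allows up to 0.136, 0.182 and 0.177 CPM.

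MYC targets outside ribosome biogenesis had medians close to those of the set. Of 48 genes, 40 lay below 0 at 0.5 nM and 41 at 1.5 nM, with medians of -0.11 and -0.14. At least 1.2-fold lower were 5 (10.4%) and 9 (18.8%), beside 6.96% and 12.6% of all genes and 2.7% and 9.08% of the abundant ones. At least 1.2-fold higher were 1 (2.08%) and 2 (4.17%), beside 10.2% and 15.3% of all genes and 3.04% and 6.5% of the abundant ones. On the TPM scale the median at 0.5 nM was -0.04. BCAT1, an aminotransferase of branched-chain amino acids, was at 232.2, 200.2 and 163.6 CPM, with -0.50 [-0.57, -0.44] at 1.5 nM. TYMS, which makes thymidylate for DNA synthesis, had -0.09 and -0.50, and the cell cycle kinase gene CDK4 had -0.35 and -0.43, both with counts that were not whole. ODC1, the first enzyme of polyamine synthesis and a standard MYC target, went the other way, with 381.8, 386.5 and 406.5 CPM and 0.09 [0.04, 0.14] at 1.5 nM. CCND2, a D-type cyclin gene with counts that were not whole, was higher, at 0.71 and 0.41, from 153 counts in the control.

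Genes that MYC is known to repress were mixed, with medians of 0.00098 and 3.61e-05 over 10 genes, of which 5 lay below 0 at either dose. At least 1.2-fold higher were 3 (30%) and 4 (40%), beside 10.2% and 15.3% of all genes and 3.04% and 6.5% of the abundant ones. At least 1.2-fold lower were 1 (10%) and 2 (20%), beside 6.96% and 12.6% of all genes and 2.7% and 9.08% of the abundant ones. Of the 10 genes, 7 averaged at least 5 CPM. CDKN1A, which encodes p21 and is also a p53 target, was at 11.7, 31.8 and 19.7 CPM, so the 0.5 nM library was the highest, with ratios of 1.43 [1.22, 1.66] and 0.75 [0.51, 0.99]. TXNIP, a regulator of glucose uptake, was at 102.2, 155 and 165.7 CPM, with 0.60 [0.52, 0.68] and 0.70 [0.62, 0.78]. NDRG1 had 0.26 and CDKN2C -0.35 at 1.5 nM.

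**Figure D5:**
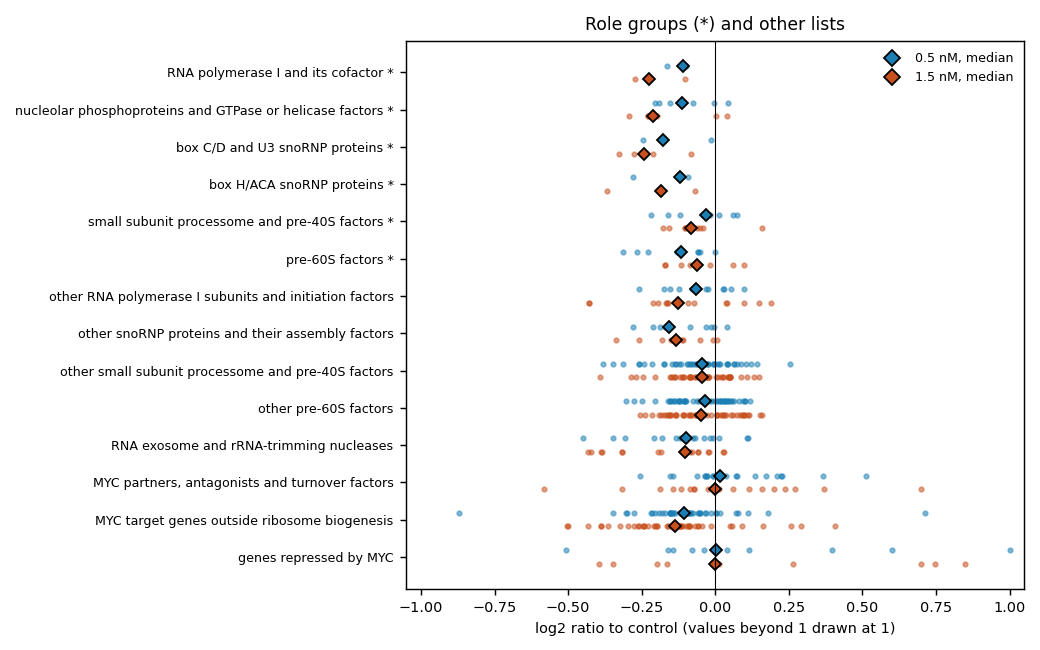
Log2 ratio to control of each gene (dots) and the median (diamonds) in the role groups of the 34 genes (marked *) and in the other lists, at 0.5 nM (blue) and 1.5 nM (orange); ratios beyond 1 are drawn at 1. The medians of the 6 role groups drawn, without MYC, range from -0.18 to -0.03 at 0.5 nM and from -0.24 to -0.06 at 1.5 nM, and those of the MYC partners and MYC-repressed genes lie between -0.000341 and 0.02.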

How the data were processed

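RNA-seq of MV-4-11 cells was analysed in 3 libraries, 1 per group. The authors deposited 1 table with an estimated count, not normalised, and a TPM value scaled to gene length for each gene and library. Of the deposited estimated counts, 12.0% to 12.7% per library were not whole numbers, by a tolerance of 1e-06. The submitters' processing notes name StringTie 1.3.1, HISAT2, fastp 0.18.0, edgeR and DESeq2 without a role. The genome build is not given in the sources used here, nor is the annotation. The labels' protocols describe no step that marks strand, so overlapping antisense RNA may not be told apart.

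Counts were rounded, and genes averaging at least 1 CPM were kept. TMM factors from edgeR 4.0.16, run in R 4.3.3, were 0.987, 1.006 and 1.008 for the control, 0.5 nM and 1.5 nM library. Log2 CPM used a prior count of 2. Intervals are exact (Clopper-Pearson, 95%) and were tested on simulated data. Those data held counting error alone at known library sizes, so that test cannot bear on amplified copies, shared reads or scaling. Further steps used Python 3.11.15, numpy 2.4.6, pandas 2.3.3, scipy 1.17.1 and statsmodels 0.14.6. GC content is that of the longest transcript in GENCODE release 29, found for 99.4% of genes kept, and its trend was fitted by lowess with a fraction of 0.3.

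The members and lists were chosen with earlier results of these data known. Values in every library are given for MYC and, in each role group, for the most abundant gene and those with the largest absolute ratio at each dose. Other members named singly were chosen after their values were seen. From each other list, up to 4 genes averaging at least 5 CPM with the largest absolute ratio at 1.5 nM are named, with MAX, MXD1, MXI1, MNT, UBTF, RRN3, ODC1 and CDKN1A always. The promoters shown follow the rule given beside them. The E-box flanks were added after seeing the data, as were MYCN, MXD3, MXD4, MGA and the background of abundant genes. A list of 14 snoRNA host RNAs had no member among the genes used. Alternatives were other scalings (DESeq2 1.42.0 size factors, upper quartile, total counts), prior count, filter, TPM, whole counts alone and GC trend removal.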

Additional observations from a re-analysis of the deposited data

How the results depend on the processing

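No paired analysis was possible because each group has 1 library. For the same reason no replicate could be left out. Over 9 alternatives the median of the 34 genes stayed below 0 in each of the 3 comparisons. It ranged from -0.13 to -0.05 at 0.5 nM and from -0.14 to -0.08 at 1.5 nM, and the value nearest 0 at 0.5 nM came from TPM. The number of genes at least 1.2-fold lower depended on the setting. At 0.5 nM it was 3 as reported, 1 with total counts alone, with whole counts alone and with the GC trend removed, and 0 with TPM. With the upper quartile and with the filter of 5 CPM it was below 3 too, as BOP1 fell short. At 1.5 nM it was 5 as reported, 2 with total counts alone, 3 with the upper quartile and 3 with TPM. With the GC trend removed POLR1B fell just short at 1.5 nM, at -0.258. Between the treated libraries it was 0 as reported and 1 with TPM. The number above 0 at 0.5 nM was 4 as reported, 8 with total counts alone and 11 with TPM. It was also above 4 with the upper quartile, with the filter of 5 CPM and with the GC trend removed. At 1.5 nM it was 5 as reported, 4 with no filter, 6 with total counts or the upper quartile, and 7 with TPM. With whole counts alone it was 3, where 27 genes remain to be counted. The share of counts held by the set was 1.02%, 0.942% and 0.920% without mitochondrially encoded genes in the total, and 0.920%, 0.868% and 0.821% by summed TPM, with the control highest each time. Of the headline results, 17 moved in an alternative and 124 did not. Of the results for single genes and other lists, 19 moved beyond their counting interval in an alternative and 563 did not. No named gene past 1.2-fold changed sign. Apart from settings that count fewer genes, the cause was not tested. For the members, counting error limits single ratios to the control to a median half-width of 0.08 on the log2 scale, and at most 0.17. Between the treated libraries these were 0.09 and 0.19.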
